A study of Arabidopsis thaliana with 12 samples.

Results

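Genes counted in only one genotype were the rows of the count table with at most 3 counts in each of the 6 libraries of one genotype and at least 10 counts in each of the 6 libraries of the other. Of 37336 rows, 57 met this rule. The choice named 14 loci to leave out, of which 2 met the count rule, CSA1 (AT5G17880) and DAR4 (AT5G17890). The remaining 55 genes are described here, 29 counted in the er erl2 double mutant only and 26 counted in wild type (WT) only. The genes were selected on the raw counts of both genotypes, so their genotype differences are given as a description with no test. The libraries measured poly-A selected RNA assigned to a locus, so "only" refers to counts and not to the DNA of the plants.

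The study sequenced RNA of whole Arabidopsis thaliana seedlings 3 days after germination, in 12 libraries and 4 groups of 3. The mutant was er-105 erl2-1, with mutant alleles of 2 receptor kinase genes, ERECTA (ER) and ERECTA-LIKE 2 (ERL2), and the labels name no second line. The labels give Col-0, the common laboratory accession, for both genotypes. The groups were er erl2 with IAA, er erl2 with mock, WT with IAA and WT with mock. All seedlings were acclimated for 30 min in liquid MS medium and then treated for 30 min. IAA (indole-3-acetic acid, the main natural auxin) was given at 1 uM in 0.02% DMSO, and mock was 0.02% DMSO alone. Nothing in the labels says that the libraries of a group came from separate cultures, so p-values measure only the spread between these libraries.

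ERECTA-family receptor kinases sit in the plasma membrane, perceive secreted peptides and are known for their roles in organ growth and stomatal patterning. Several of the genes below belong to families that are large in plants and grow by tandem duplication. These include nucleotide-binding leucine-rich repeat proteins (NLRs, intracellular immune receptors), receptor-like kinases and cytochrome P450 enzymes. Pseudogenes are loci that resemble genes and are annotated as unable to make a full protein, and some of them are still transcribed.

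Total counts were 28930625 to 35837999 per library, so that 3 counts, the smallest level taken as detectable, corresponded to 0.083 to 0.101 CPM, the usual scaling of counts by library size. ER had 159 to 310 counts in er erl2 and 1636 to 1973 in WT, ERL2 had 73 to 142 in er erl2 and 287 to 414 in WT, and ERL1, the remaining family member, had 122 to 168 in er erl2 and 49 to 95 in WT. Neither targeted gene was therefore at 0 in the mutant. The 4 shoot markers summed to 35500 to 39300 CPM in er erl2 and 30300 to 35200 CPM in WT, and the 4 root markers to 2940 to 3390 CPM in er erl2 and 2740 to 3370 CPM in WT. Seed storage, flower and pollen markers summed to at most 1.84 CPM in any library. The shoot sum did not overlap between the genotypes, and its part in the results was not tested. In whole seedlings, fewer cells of a type and less RNA per cell cannot be told apart.

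Not every one of the 55 genes was at 0 in the genotype that lacked it. Of the 29 genes counted in er erl2 only, 19 had 0 counts in all 6 WT libraries and 10 had between 1 and 3 counts in at least 1 of them. Of the 26 counted in WT only, 14 had 0 counts in all 6 er erl2 libraries and 12 did not. Summed over the 29 genes, er erl2 libraries held 5297 to 6417 counts each, against 4 to 12 counts in each WT library. Summed over the 26 genes, each er erl2 library held 8 to 11 counts, against 4373 to 5270 in each WT library. By the rule the pattern held in IAA and in mock libraries alike, and a few genes carried most of the counts. The 2 genes of highest level held 52.4% of the counts of the er erl2 set, and the 2 highest of the WT set held 51.9%.

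**Figure D1:**
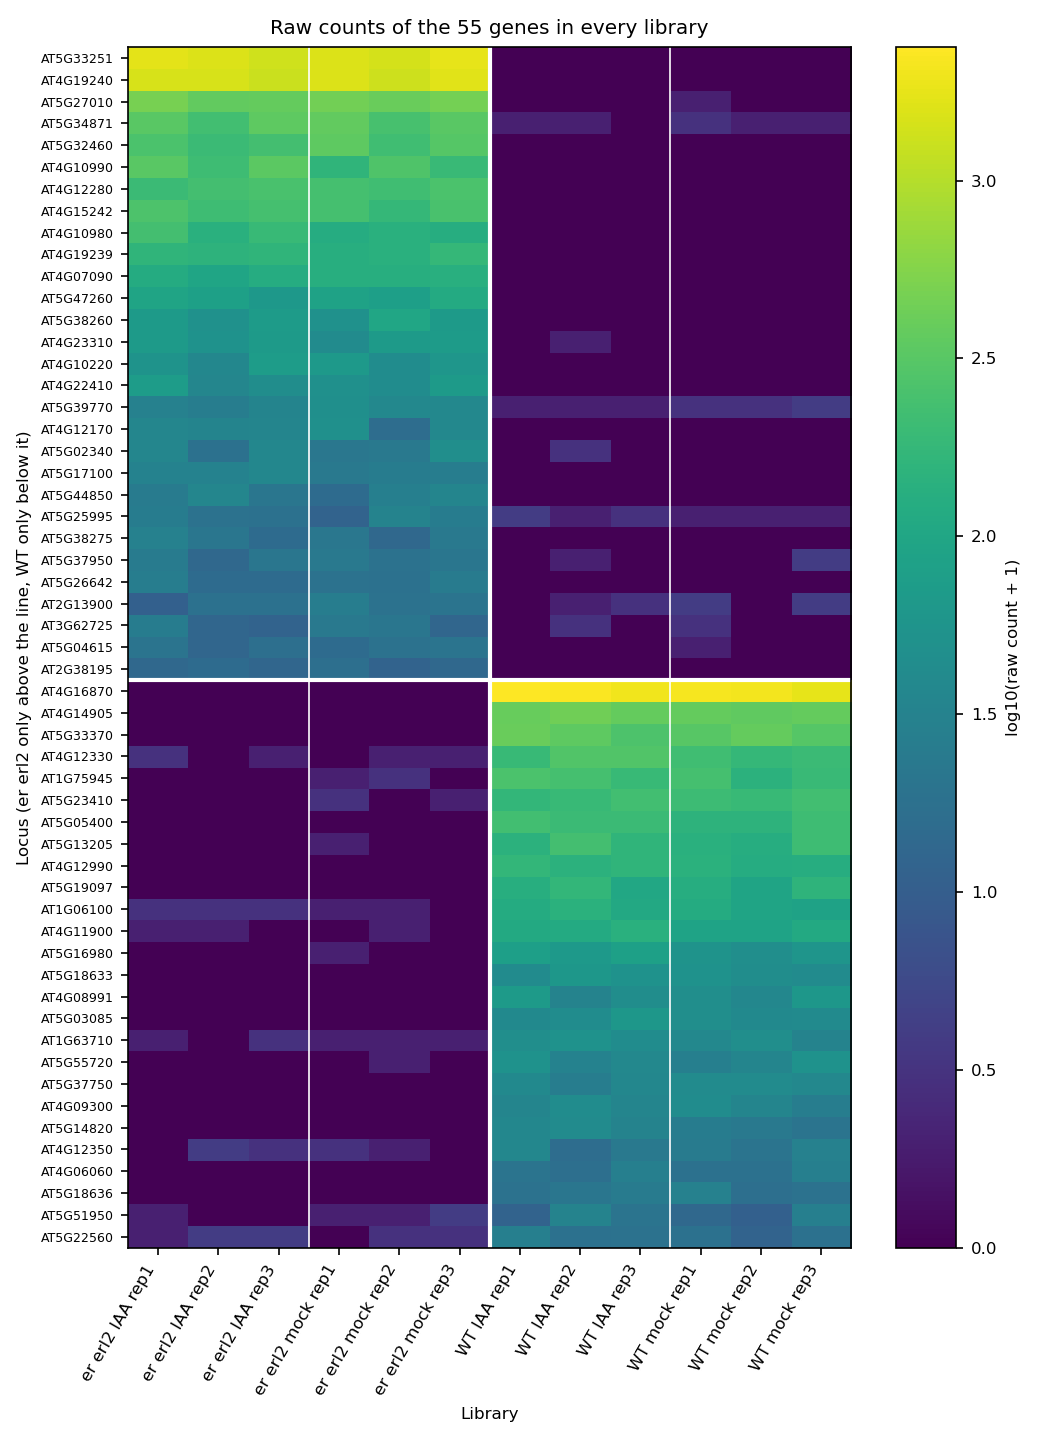
Raw counts of the 55 genes (rows) in the 12 libraries (columns), coloured by log10(raw count + 1). The 29 genes above the white line were counted in er erl2 and the 26 below it in WT, and none exceeded 3 counts in a library of the other genotype.

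Among genes counted in er erl2 only, the highest counts came from the transcribed pseudogene AT5G33251, annotated as a pseudogene of an unknown protein. Its lowest, median and highest counts were 1342, 1552.5 and 1792 in er erl2, against 0 in all 6 WT libraries. With the floor of 3 counts per library, it was at least 504-fold higher in er erl2. AT4G19240, which encodes an uncharacterized protein of 366 residues, had 1274, 1472.5 and 1672 counts in er erl2 and 0 in WT, at least 473-fold higher in er erl2. These genes had similar levels in every er erl2 library. Per length, AT4G19240 had 41.4 and AT5G33251 had 35.6 CPM per kb of exon in er erl2, the 2 highest levels of the set.

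The next genes by level were less abundant. AT5G27010 encodes an ARM repeat protein, a class of helical repeat proteins that bind other proteins. It had 369, 425 and 475 counts in er erl2 (lowest, median and highest) and 1 count in a single WT library. Its ratio of er erl2 to WT was 2470, with a 95% counting interval of 442 to 97400. Such intervals describe counting error and make no allowance for the choice of genes by these same counts. The noncoding RNA AT5G34871 had 226, 322 and 366 counts in er erl2 and 0 to 2 in WT, a ratio of 296 (136 to 808). A stretch of it is near-identical to another locus, as given below, so its counts are uncertain. The ARM repeat gene was seen once in the 6 WT libraries together, whereas the noncoding RNA had a count in 5 of the 6.

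The other 4 of the 8 highest genes of the er erl2 set were at 0 in every WT library. AT5G32460 encodes a B3 family protein, a plant class of DNA-binding transcription factors, and had 198, 247 and 342 counts in er erl2. The pseudogene AT4G10990 had 160, 244 and 334, and the noncoding RNA AT4G15242 had 174, 238.5 and 266. AT4G12280 is annotated as a copper amine oxidase, an enzyme class that breaks down polyamines, and had 200, 234 and 260. Against the floor these 4 genes were at least 83.5-fold (AT5G32460), 81.6-fold (AT4G10990), 75.9-fold (AT4G12280) and 74.5-fold (AT4G15242) higher in er erl2.

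The remaining 21 genes of the er erl2 set had mean levels of 0.411 to 4.89 CPM in er erl2. Signalling and defence genes among them were AT5G47260, an NLR, with 62 to 116 counts, and 2 receptor-like or related kinases, CRK23 (AT4G23310), a cysteine-rich receptor-like kinase, with 41 to 71, and AT5G38260 with 50 to 97. Each of these 3 had 0 counts in WT except CRK23, with 1 count in 1 library. APD4 (AT2G38195), a RING/U-box protein of the class of ubiquitin ligases, had 11 to 16 counts in er erl2 and 0 in WT. Genes for enzymes were AT5G37950, a UDP-glycosyltransferase that transfers sugars to small molecules, with 13 to 24 counts in er erl2 and up to 3 in WT, AT4G12170, a thioredoxin superfamily gene, with 15 to 48 in er erl2 and 0 in WT, and AT5G39770, annotated as restriction endonuclease type II-like, with 26 to 47 in er erl2 and 1 to 3 in every WT library. The coding genes AT4G10220 (DUF239), AT4G22410 (annotated as tri-snRNP-associated-like), AT5G17100 (cystatin superfamily) and AT5G44850 (RNI-like/FBD-like) were at 0 in WT. AT2G13900 and AT5G02340, both with C1 domains, and AT5G25995, an uncharacterized protein of 62 residues, were not. The noncoding rest comprised the lncRNAs AT4G07090, with 95 to 133 counts in er erl2, and AT5G04615, with 12 to 19, and the pseudogenes AT4G10980, AT4G19239, AT5G38275, AT5G26642 and AT3G62725. The last of these had 11 to 25 counts in er erl2 and the lowest level per length, 0.14 CPM per kb.

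Among genes counted in WT only, the pseudogene AT4G16870 had the highest counts of all 55 genes. It was at 0 in all 6 er erl2 libraries, against 1803, 2085 and 2373 counts in WT (lowest, median and highest). With the floor of 3 counts per library it was at least 717-fold lower in er erl2. Per length it had 15.1 CPM per kb in WT, close to the 14.5 CPM per kb of AT1G75945, which encodes an uncharacterized protein of 61 residues and had 0 to 2 counts in er erl2 and 145, 214.5 and 263 in WT. AT4G16870 has 4443 bases of exon and AT1G75945 has 461, so the shorter gene reached a similar level per length with fewer counts.

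The WT set also held genes annotated as lipases, P450s, desaturases, oxidoreductases or pectin lyases, 7 in all. AT5G33370 encodes a GDSL-like lipase, of a class of esterases and acylhydrolases, and had 0 counts in er erl2 against 268, 327.5 and 400 in WT. CYP706A7 (AT4G12330), a cytochrome P450, had 0 to 2 counts in er erl2 against 177, 209 and 283 in WT, an inverse ratio (WT over er erl2) of 277 (95% counting interval 119 to 856). CYP86A7 (AT1G63710), of a P450 family that hydroxylates fatty acids, had 0 to 2 counts in er erl2 and 31 to 52 in WT. AT1G06100, a fatty acid desaturase, had 0 to 2 counts in er erl2 and 88 to 142 in WT. The desaturase and CYP86A7 each had counts in 5 of 6 er erl2 libraries, so both were low there and not at 0. AT5G16980 (zinc-binding dehydrogenase), AT5G51950 (glucose-methanol-choline oxidoreductase) and AT5G55720 (pectin lyase-like) had at most 1, 3 and 1 counts in an er erl2 library.

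Of the coding genes of the WT set with other roles, AT4G14905, a galactose oxidase/kelch repeat gene, was the most abundant. It had 0 counts in er erl2, against 356, 379 and 437 in WT, at least 132-fold lower in er erl2. AT5G05400, an NLR, had 0 counts in er erl2 against 150, 197 and 228 in WT, at least 64.4-fold lower in er erl2. AT4G11900, an S-locus lectin kinase, had 0 to 1 counts in er erl2 and 89 to 140 in WT. MYB42 (AT4G12350), a MYB transcription factor, had 0 to 3 counts in er erl2 and 15 to 35 in WT. Each set thus held an NLR and at least 1 kinase gene. AT5G14820, a pentatricopeptide repeat gene (a class that acts on organelle RNA), AT5G37750 (DnaJ-domain chaperone), AT4G09300 (LisH and RanBPM domains), AT5G18636 (Ta11-like non-LTR retrotransposon) and AT4G12990 (uncharacterized) were at 0 in er erl2. AT5G22560 (DUF247) had up to 3 counts there.

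The 8 noncoding loci of the WT set were likewise spread over a wide range. The noncoding RNA AT5G23410 had 0 to 2 counts in er erl2 and 173, 198.5 and 224 in WT. The pseudogene AT5G13205 had 1 count in 1 er erl2 library and 126, 154 and 235 in WT. The pseudogenes AT5G19097 (94 to 169 counts in WT), AT5G18633 (41 to 61) and AT4G08991 (31 to 68, annotated as a pseudogene of AT4G14145) and the lncRNAs AT5G03085 (39 to 60) and AT4G06060 (16 to 28) were at 0 in er erl2. Apart from AT4G16870, no noncoding locus of the WT set exceeded 235 counts in a library.

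Most of the 55 genes were low. Mean levels ran from 0.411 to 48.4 CPM in er erl2 for its set, with a median of 1.71, and from 0.571 to 67.2 CPM in WT for its set, with a median of 1.79. Levels of at least 10 CPM were reached by 3 genes in each set. Per length the medians were 1.25 CPM per kb in er erl2 for its set and 1.02 CPM per kb in WT for its set. Across the 6 libraries with counts, the coefficient of variation of CPM had a median of 20.3% for the er erl2 set and 19.4% for the WT set. Other tested genes within the middle part of the same level range, between the lower and the upper quartile of each set, had medians of 17.2% in er erl2 and 17.8% in WT. The most even genes were AT4G14905 (3.92%), AT5G27010 (5.06%) and AT4G16870 (5.06%), and the least even was AT5G51950 (47.5%), with WT counts of 11, 31 and 19 under IAA and 13, 10 and 28 under mock.

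The limits of the rule separated genes with similar counts. Just inside it, AT5G39770 had up to 3 counts in WT, AT2G13900 had as few as 10 in an er erl2 library and APD4 as few as 11, AT5G22560 had up to 3 counts in er erl2 and as few as 11 in WT, and AT5G51950 had as few as 10 in WT. Just outside it, AT5G02920, an F-box gene, had 17 to 35 counts in er erl2 and up to 4 in WT, and AT1G71920 (HISN6B, of histidine synthesis) had 41 to 88 in er erl2 and up to 4 in WT. AT4G15360, a cytochrome P450, had as few as 9 counts in er erl2 and AT5G38250, a kinase, as few as 8. On the WT side, AT5G05060, a cystatin superfamily gene, had 715 to 806 counts in WT and missed the limit only by a count of 4 in 1 er erl2 library. AT1G65450, an acyltransferase, likewise had 91 to 153 in WT and up to 4 in er erl2, AT5G37300 had as few as 9 in WT, and AT5G22520 as few as 8. AT5G05060 had more counts than 25 of the 26 genes of the WT set, so the limit also left out a strong contrast.

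The sets differed from the table in gene type. Protein-coding genes made up 36 of the 55, or 65.5%, against 96.6% of the 20462 rows with at least 10 counts in each of the 6 libraries of a genotype. Pseudogenes of either kind made up 12, or 21.8%, against 1.29% of those rows, and lncRNAs and other noncoding RNAs made up 7, or 12.7%, against 1.53%. Both sets had 18 protein-coding genes, and pseudogenes numbered 7 in the er erl2 set and 5 in the WT set. Over all 37336 rows, those with few counts included, the shares were 73.5% protein-coding, 12.9% pseudogene and 9.91% lncRNA or other noncoding RNA. Neither background is matched for level. The median protein of the 36 coding genes was 382 residues long, close to the 388.5 residues of the coding rows with 10 counts.

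By locus code, 20 of the 55 genes lay on chromosome 4 and 29 on chromosome 5, together 89.1%, against 38.8% of the rows with 10 counts. Chromosomes 1, 2 and 3 held 3, 2 and 1. Per 1000 rows with 10 counts this came to 6.36 genes on chromosome 4 and 6.05 on chromosome 5, and to 0.561, 0.65 and 0.248 on chromosomes 1, 2 and 3. The 3 genes on chromosome 1 (AT1G06100, CYP86A7 and AT1G75945) were all counted in WT only and each had some counts in er erl2. The 3 on chromosomes 2 and 3 (AT2G13900, APD4 and AT3G62725) were all counted in er erl2 only. On chromosomes 4 and 5 both kinds were present, 26 and 23, and they were interleaved.

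**Figure D2:**
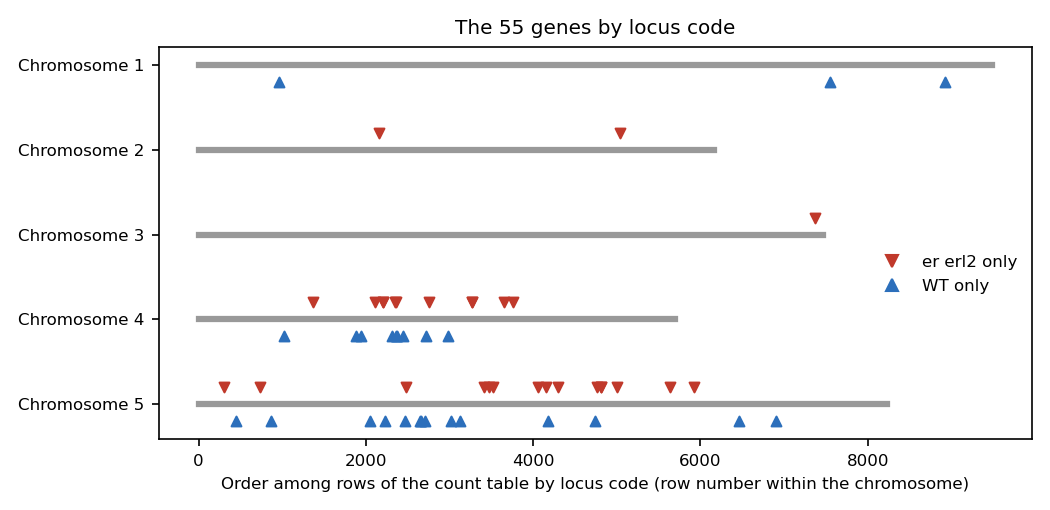
The 55 genes placed by locus code along chromosomes 1 to 5 (x axis, row number within the chromosome in code order), with genes counted in er erl2 only above each line and those counted in WT only below it. Of the 55, 49 lie on chromosomes 4 and 5, where both kinds are interleaved.

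Some of the genes were close to each other. With at most 5 tested genes between them, 15 of the 55 fell into 6 runs, 4 of which held genes of one kind. The pseudogenes AT4G10980 and AT4G10990 formed one such run, and AT4G19239 and AT4G19240 another, all counted in er erl2 only. AT5G38260 (kinase) and AT5G38275 (pseudogene) formed another run of er erl2 genes, and AT5G18633 and AT5G18636 one of WT genes. The runs of 3 or more were mixed. From AT4G12170 to AT4G12350, a thioredoxin and a copper amine oxidase gene counted in er erl2 only were followed by CYP706A7 and MYB42, counted in WT only. From AT5G32460 to AT5G33370, the B3 gene and AT5G33251, counted in er erl2 only, were followed by the GDSL lipase gene, counted in WT only. Codes of newer noncoding loci do not follow position, and with genes placed in the order of the reference annotation 16 of the 55 lay in runs.

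Genes beside the 55 were then examined, since the rule did not use their counts. Neighbours were the nearest tested genes by locus code, passing over the 55 genes themselves and the loci left out. A neighbour was called when its genotype difference had a Benjamini-Hochberg adjusted p under 0.05 in the same direction under mock and under IAA (edgeR quasi-likelihood test). Of all 21376 tested genes, 14% were called for genotype under IAA and 15.7% under mock, and 8.69% in the same direction in both (4.68% higher and 4.01% lower in er erl2). All 55 genes of the sets were among the last, from which nothing is read because the rule used that contrast. Among the 5 tested neighbours on each side, 94 of 469 were called, or 20%, with 51 above and 43 below WT in er erl2. On chromosomes 4 and 5 the count was 88 of 409, or 21.5%, against 12.5% of the other tested genes on these chromosomes. On chromosomes 1 to 3 it was 6 of 60, or 10%, against 5.6%. These shares are descriptions. Without a filter on low counts the share among neighbours was 13.2%. That fit tested more rows and called 1774 genes in the same direction in both treatments, against 1857 with the filter. Its share over all rows is not given here, so the 13.2% is not comparable with the backgrounds above.

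On chromosomes 4 and 5 the share was highest for the nearest gene but did not fall steadily with distance. There 28.4% of 88 adjacent tested genes were called, 16.3% of those a step further, 22.9% of those 4 to 5 genes away, 22.2% of those 8 to 10 genes away and 16% of those 16 to 20 genes away. On chromosomes 1 to 3, 0 of 12 adjacent genes were called by edgeR, DESeq2 or limma-voom, and 1 had an unadjusted p under 0.05 in the same direction in both treatments by each. Around all 55 genes there were 100 distinct adjacent tested genes, of which 25 were called. By locus code, neither adjacent gene was called for 29 of the 55, only 1 was for 24, and both were for 2. Codes of newer noncoding loci do not follow position, so genes adjacent by code need not lie beside them. AT4G06060 had neither adjacent gene called by code, yet in the annotation it lies opposite AT4G13270. That gene was called, with log2 differences of -0.55 (SE 0.0696) under IAA and -0.42 (SE 0.0696) under mock.

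**Figure D3:**
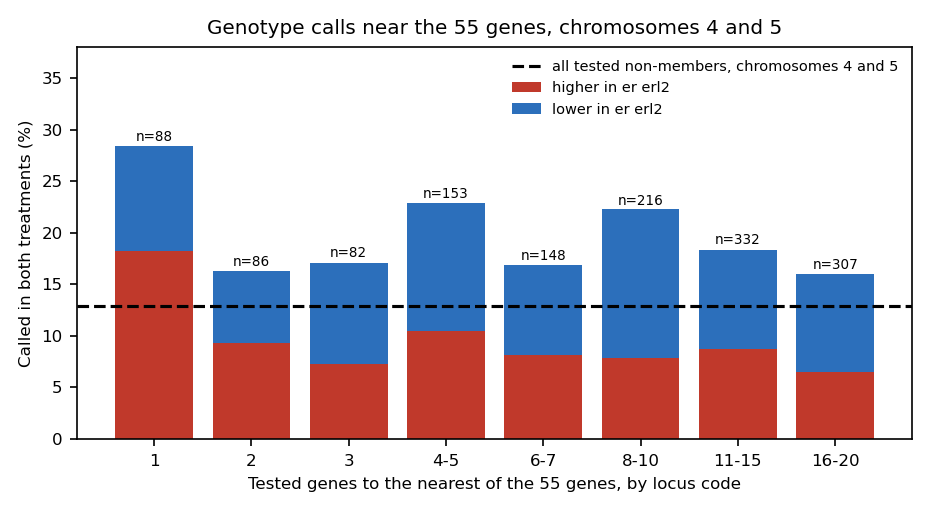
Share of tested genes called for genotype in both treatments (y axis, percent) by distance to the nearest of the 55 genes on chromosomes 4 and 5 (x axis, in tested genes by locus code), split into higher (red) and lower (blue) in er erl2. The bar is 28.4% for adjacent genes, 22.2% at 8 to 10 genes and 16% at 16 to 20 genes, and the dashed line is all tested genes of these chromosomes outside the sets and the loci left out, 12.9%.

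AT5G14820 had called genes on both sides, both annotated as pseudogenes of uncharacterized product and both lower in er erl2, as it was itself. AT5G14810 had 4, 1 and 1 counts in er erl2 under IAA and 2, 0 and 2 under mock, against 18, 39 and 39 in WT under IAA and 34, 34 and 33 under mock. Its log2 difference was -3.89 (SE 0.56) under IAA and -4.66 (SE 0.594) under mock, with an edgeR adjusted p of 0.000114 under mock. AT5G14830 had 11 to 24 counts in er erl2 and 97 to 127 in WT, with log2 differences of -2.35 (SE 0.216) under IAA and -3.07 (SE 0.23) under mock. Neither gene overlapped between genotypes, and both calls held in every alternative fit that tested the gene. AT4G12170, the other gene with both neighbours called, had them in opposite directions. AT4G12130 was higher by 0.60 (SE 0.146) under IAA and 0.49 (SE 0.145) under mock, and these calls were lost in 3 and 6 alternative fits. The pseudogene AT4G12200 was lower, at -2.64 (SE 0.597) under IAA and -4.11 (SE 0.71) under mock.

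Some adjacent genes were of the same family as the gene they adjoined, and those described here were picked after their values were seen. By product name, 8 adjacent genes carried the same annotation as their neighbour in the sets, of which 3 were called and 5 were not. AT4G12270, a copper amine oxidase gene beside AT4G12280, had 197 to 247 counts in er erl2 and 55 to 74 in WT, and was higher by 1.72 (SE 0.144) under IAA and 1.95 (SE 0.146) under mock on the log2 scale. AT5G38250, a kinase gene beside the kinase gene AT5G38260, carries a different product name and is not among the 8. It had 8 to 34 counts in er erl2 and 0 to 3 in WT, with log2 differences of 4.12 (SE 0.701) under IAA and 3.75 (SE 0.675) under mock. AT5G16990, a zinc-binding dehydrogenase gene beside AT5G16980, was instead higher in er erl2 while AT5G16980 was counted in WT only. It had 1110 to 1407 counts in er erl2 and 586 to 850 in WT, with log2 differences of 0.74 (SE 0.0762) under IAA and 0.91 (SE 0.0767) under mock. AT5G02350, a C1 domain gene beside the er erl2 gene AT5G02340, ran the opposite way too, with 13 to 31 counts in er erl2 and 193 to 279 in WT, and log2 differences of -3.39 (SE 0.245) under IAA and -3.34 (SE 0.244) under mock. Of the 5 that were not called, AT1G06090, a desaturase gene beside AT1G06100, had log2 differences of 0.07 (SE 0.289) under IAA and 0.07 (SE 0.285) under mock. APD1 (AT2G38185), which overlaps APD4 on the same strand, had -0.16 (SE 0.205) under IAA and -0.07 (SE 0.202) under mock. AT4G12290, on the other side of AT4G12280, had 0.00 (SE 0.127) under IAA and 0.17 (SE 0.127) under mock. The remaining uncalled genes passed the threshold under IAA only. AT5G02330, a C1 domain gene on the other side of AT5G02340, was at -4.96 (SE 0.788, edgeR adjusted p 0.00078) under IAA. It was at -2.18 (SE 0.807, edgeR adjusted p 0.0831) under mock, and its counts were 0 to 3 in er erl2 and 3 to 36 in WT. AT5G17150, a cystatin superfamily gene beside AT5G17100, was at 1.84 (SE 0.535, edgeR adjusted p 0.0338) under IAA and 0.47 (SE 0.551) under mock. AER, an alkenal reductase gene on the other side of AT5G16980, is annotated under another name and was not called either, at 0.02 (SE 0.119) under IAA and 0.00 (SE 0.119) under mock. Adjacent genes of one family thus did not always share a direction or a call.

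AT4G16857 and AT5G37980 had large differences beside genes of another class. AT4G16857, a TIR-NBS-LRR gene beside the pseudogene AT4G16870, had 866 to 1520 counts in er erl2 and 46 to 94 in WT. Its log2 difference was 4.15 (SE 0.239) under IAA and 3.85 (SE 0.242) under mock, while AT4G16870 was at 0 in er erl2. AT5G37980, a zinc-binding dehydrogenase gene beside AT5G37950, had 115 to 202 counts in er erl2 and 6 to 10 in WT, with log2 differences of 4.17 (SE 0.27) under IAA and 4.33 (SE 0.273) under mock. The groups did not overlap for either gene.

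Sequence likeness was examined next, because counting can split reads between near-identical genes. Proteins of the 36 coding genes were compared with all other proteins of the reference annotation, and 33 had a relative at another locus. For 19 the identity was at least 70%, and for 4 at least 95%, so the counts of these 4 are uncertain. AT5G14820 was 99.7% identical to AT3G62540, another pentatricopeptide repeat gene, AT5G18636 was 98.9% identical to AT5G25200, AT4G22410 was 98.3% identical to AT4G22285, and APD4 was 96.5% identical to APD3 (AT2G38220). The fifth closest, AT4G12280, was 92.3% identical to AT4G12290.

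These relatives did not share one pattern. AT3G62540 had 14 to 31 counts in er erl2 and 22 to 39 in WT and was not called, with log2 differences of -0.72 (SE 0.269, edgeR adjusted p 0.093) under IAA and -0.04 (SE 0.269, edgeR adjusted p 0.941) under mock. AT5G25200 was at 0 in all 12 libraries, and AT4G12290 was not called, with 173 to 230 counts in er erl2 and 159 to 208 in WT. AT4G22285, annotated as a ubiquitin C-terminal hydrolase, was lower in er erl2, with 705 to 849 counts there and 1003 to 1296 in WT and log2 differences of -0.60 (SE 0.064) under IAA and -0.58 (SE 0.064) under mock. Its relative AT4G22410 went the other way, with 34 to 72 counts in er erl2 and 0 in WT. APD3 was higher in er erl2, as APD4 was, with counts of 64, 60 and 28 under IAA and 50, 78 and 72 under mock in er erl2, against 6, 1 and 3 under IAA and 3, 9 and 2 under mock in WT. Its log2 differences were 3.91 (SE 0.535) under IAA and 3.68 (SE 0.495) under mock.

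Over all 32 distinct protein relatives, 23 were tested and 6 were called in both treatments, or 26.1%, against 8.69% of all tested genes. The higher ones in er erl2 were APD3, AT1G66910 (kinase, 54.0% identical to AT5G38260) and AT5G38010 (UDP-glycosyltransferase, 90.2% identical to AT5G37950), at log2 differences of 1.12 (SE 0.171) under IAA and 1.10 (SE 0.17) under mock for AT5G38010. The mock call of AT1G66910 was lost without er erl2 mock replicate 2 and without WT mock replicate 1. The lower ones were AT4G22285, AT5G02350 (85.5% identical to AT2G13900) and the DnaJ gene AT5G37440 (92.0% identical to AT5G37750). AT5G37440 had 19 to 37 counts in er erl2 and 55 to 91 in WT, and its call under IAA was lost without er erl2 IAA replicate 1 or 3 or WT IAA replicate 1. For 17 of the 23 tested relatives the genotypes were not called apart in both treatments. Of the called relatives, AT5G38010, AT4G22285, AT5G02350 and AT5G37440 lie on chromosomes 4 and 5. There 12.9% of tested genes outside the sets and the loci left out were called, more than the 8.69% of all tested genes. AT5G02350 was also counted above among the called adjacent genes, so relatives and neighbours are not separate counts.

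**Figure D4:**
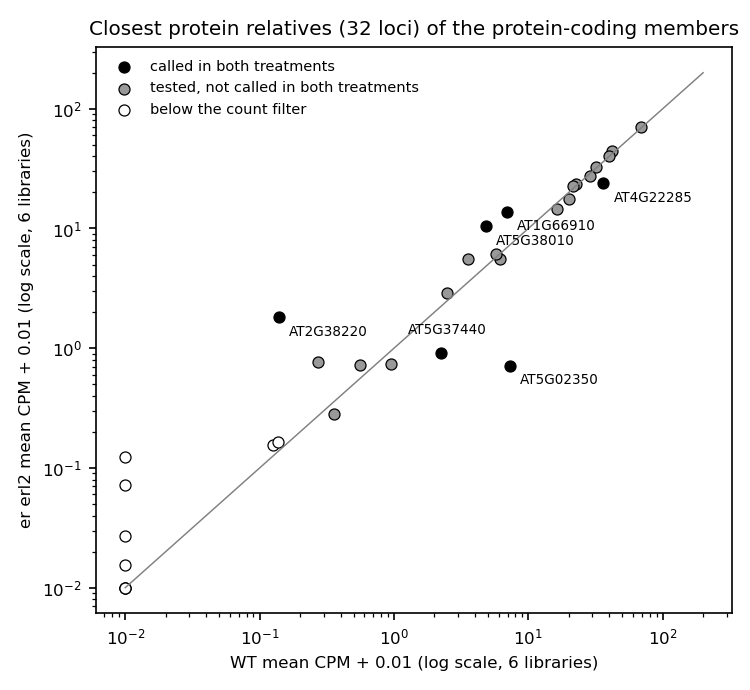
Mean CPM in er erl2 (y axis) against mean CPM in WT (x axis), both plus 0.01 on log scales, of the 32 closest protein relatives of the coding genes in the sets. Relatives called for genotype in both treatments are black and named, other tested relatives are grey, relatives below the count filter are open, and the line marks equal levels.

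Transcripts of the noncoding loci could be compared only as nucleotides. By that measure, 10 of the 55 had a relative at 95% identity or more over the aligned stretch, so the counts of these 10 are uncertain as well. They include the pseudogene AT5G13205, 99.6% identical to AT1G11265 over 4059 of its 4071 bases. AT5G34871 was 96.2% identical to AT3G42806 over 160 bases, and AT5G23410 was 99.0% identical to AT5G42730 over 480 bases. AT1G11265 averaged 0.0251 CPM in er erl2 and 0.0716 CPM in WT, whereas AT5G13205 averaged 5.4 CPM in WT. Reads could be split between this pair, so their levels are not separate measures. The neighbouring pseudogenes AT4G10980 and AT4G10990 were both most like AT4G14460, another pseudogene, at 76.8% and 73.9% identity. The pseudogene AT4G19239, annotated as a pseudogene of a beta-galactosidase gene, was 78.6% identical over 257 bases to AT5G35935, a pseudogene of chromosome 5. AT5G35935 had 800, 644 and 563 counts under IAA and 807, 637 and 785 under mock in er erl2, against 10, 17 and 11 under IAA and 9, 6 and 7 under mock in WT, a difference on the log2 scale of 5.75 (SE 0.166) under IAA and 6.51 (SE 0.18) under mock. It was not in the sets because its WT counts exceeded 3.

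Some of the 55 also resembled each other. The C1 domain genes AT2G13900 and AT5G02340, both counted in er erl2 only, shared 63.4% of aligned residues. The NLR of the WT set, AT5G05400, and that of the er erl2 set, AT5G47260, shared 39.1%. Each was closer to AT5G63020, an NLR with 17.6 CPM in er erl2 and 20 CPM in WT, at 46.1% and 44.7%.

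In the annotation 15 of the 55 overlapped another locus, and whether counting used strand is not given in the sources used here. The lncRNA AT4G06060 lies opposite AT4G13270, which had 834 to 1044 counts in er erl2 and 1076 to 1389 in WT, and AT5G51950 lies opposite AT5G51940, with 771 to 948 in er erl2 and 748 to 835 in WT. AT4G11900 lies opposite ARCK1 (AT4G11890), a kinase gene with 33 to 108 counts in er erl2 and 5 to 24 in WT, the reverse of AT4G11900. APD4 overlaps APD1 (AT2G38185) on the same strand, which had 94 to 136 counts in er erl2 and 91 to 142 in WT. Counts of these genes are uncertain for that reason.

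The rule did not compare IAA with mock, and all 55 genes passed the count filter through the genotype that has them. The rule did ask for at least 10 counts in every IAA and mock library of that genotype. Genes near that level that IAA strongly raised or lowered could thus be left out. The backgrounds over all tested genes given below carry no such requirement and are not matched for level. All tested genes had a median coefficient of variation of 9.52% in er erl2 and 9.95% in WT. The sets had 20.3% and 19.4% in the genotype that has them. The counts below therefore do not show that the sets respond less to IAA than other genes of their level. None of the 29 er erl2 genes was called for IAA in er erl2 (0 of 29, background 1.53% of all tested genes), and none of the 26 WT genes was called for IAA in WT (0 of 26, background 1.21%), at an edgeR adjusted p under 0.05. At an unadjusted p under 0.05, 1 er erl2 gene and 0 WT genes passed, against 11.3% and 9.77% of all tested genes. The DESeq2 Wald test called 0 and 0, and limma-voom called 0 and 0. At an unadjusted limma p under 0.05 there were 2 genes of each set. The share of all tested genes at that limma p is not given here, so these counts have no background. Estimated log2 changes with IAA ranged from -0.45 to 0.58 in the er erl2 set, with a median of -0.01, and from -0.38 to 0.60 in the WT set, with a median of 0.07. The medians over all tested genes were -0.00451 in er erl2 and 0 in WT. Standard errors had medians of 0.298 for the er erl2 set and 0.261 for the WT set and the smallest, 0.0696, was that of AT4G16870 in WT.

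For some of the most abundant genes the standard errors were small. AT5G33251 averaged 48.6 ± 3.77 CPM with IAA and 48.3 ± 1.13 CPM with mock in er erl2 (SD, n = 3 each), a log2 change of 0.01 (SE 0.0751). AT4G19240 averaged 44.7 ± 3.68 CPM with IAA and 46.4 ± 2.11 CPM with mock in er erl2 (SD, n = 3 each), a log2 change of -0.06 (SE 0.0797). AT4G16870 averaged 68.1 ± 2.19 CPM with IAA and 66.3 ± 4.66 CPM with mock in WT (SD, n = 3 each), a log2 change of 0.04 (SE 0.0696). In each of these 3 genes the treatments overlapped.

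**Figure D5:**
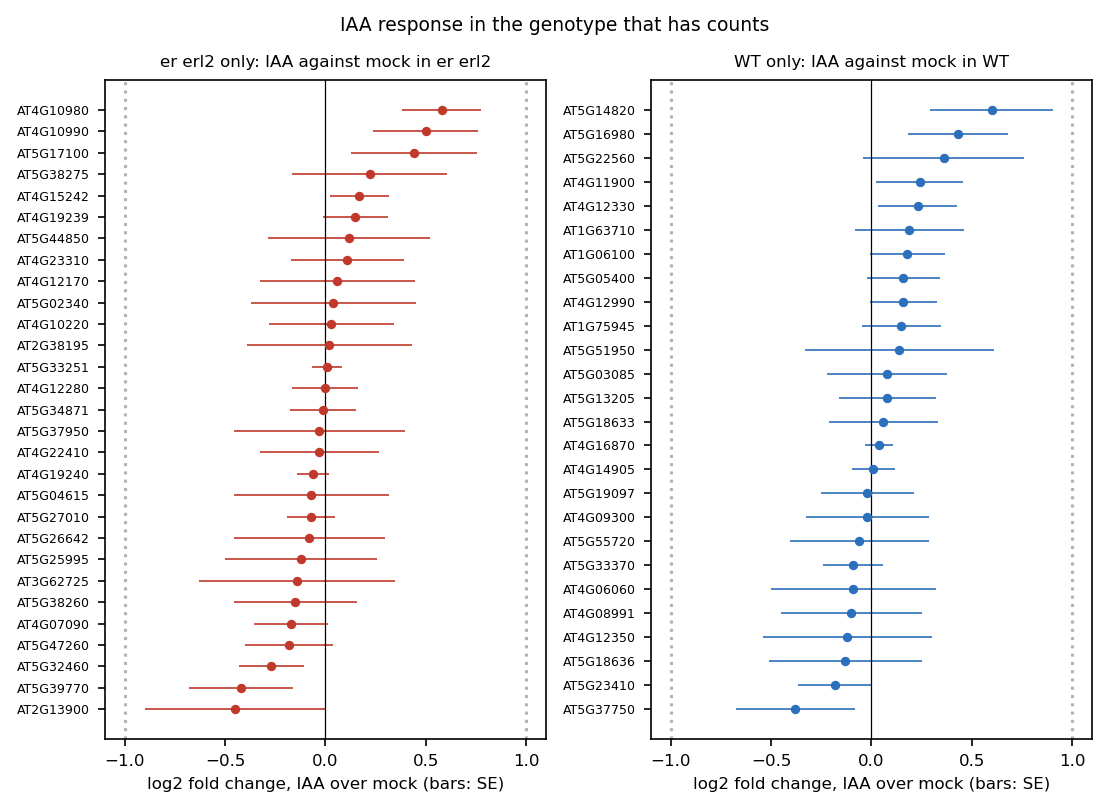
Log2 fold change of IAA over mock (points, with bars of 1 SE) for the 29 genes counted in er erl2 only, in er erl2 (left), and for the 26 counted in WT only, in WT (right), each sorted by the estimate, with dotted lines at a 2-fold change. All estimates lie between -0.45 and 0.60, and 0 of the 55 passed the adjusted threshold.

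The smallest p-values in er erl2 were those of 2 neighbouring pseudogenes. AT4G10980 had 233, 140 and 185 counts with IAA and 122, 138 and 124 with mock, and its treatments did not overlap in CPM. Its log2 change was 0.58 (SE 0.196), with an edgeR p of 0.0143 unadjusted and 0.269 after adjustment. AT4G10990 had 325, 213 and 334 counts with IAA and 160, 275 and 195 with mock, which overlapped, and a log2 change of 0.50 (SE 0.262, edgeR adjusted p 0.540). Without er erl2 mock replicate 2 the change of AT4G10990 was 0.83 (SE 0.213, edgeR adjusted p 0.139), and its values with single libraries left out ran from 0.34 to 0.83. In WT they were those of AT5G14820, with 36, 42 and 31 counts with IAA and 25, 22 and 19 with mock (log2 change 0.60, SE 0.308, edgeR adjusted p 0.562), and AT5G16980, with 79, 67 and 81 with IAA and 53, 46 and 57 with mock (0.43, SE 0.249, edgeR adjusted p 0.616). In both WT genes the treatments did not overlap, and no adjusted p passed the threshold. Treatments did not overlap for 2 of the 29 and 3 of the 26 genes, against backgrounds of 17.2% and 13.4% of all tested genes. These backgrounds are not matched for level either.

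The families of the 55 genes were followed outside the sets by counting calls for genotype in both treatments among the other tested members of each list. Of 298 other tested pseudogenes, 54 were called, or 18.1%, with 15 above and 39 below WT in er erl2. Of 121 other tested NLR genes, 16 were called, or 13.2%, with 8 in each direction. Receptor-like or leucine-rich repeat kinase genes were at 11.6% of 224, P450 genes at 10.2% of 177, glycosyltransferase genes at 8.03% of 137, C1 domain genes at 5.26% of 114 and B3 genes at 3.57% of 56. Other lncRNAs and noncoding RNAs were at 6.39% of 407. Beside the 8.69% of all tested genes, pseudogenes stood highest of these lists and B3 genes lowest, without a test of the lists.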

How the data were processed

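RNA of whole seedlings was sequenced as poly-A selected, stranded libraries, per the labels' protocols. The authors deposited 1 table of raw counts per gene (whole numbers, not normalized), with 1 column per library. The submitters' processing notes name bcl2fastq, STAR 2.7.6a, featureCounts 2.0.0 and TAIR10, with no role or order. The annotation and the strand setting of the counting are not given in the sources used here. Each column was matched to a sample by its title, and 0 columns were left unassigned.

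The 55 genes were taken by the count rule from 37336 rows. The genes, lists and comparisons were chosen with earlier results of these data known. Gene names, types, lengths and order came from the RefSeq annotation of TAIR10.1 (37051 rows matched), and no coordinates or sequences are given because its build may differ from that of the counts. Counts were fitted with edgeR 4.0.16 in R 4.3.3 over all 12 libraries, with 1 mean per group, TMM scaling (factors 0.973 to 1.02) and the robust quasi-likelihood test. Genes were kept by filterByExpr (minimum count 10, minimum total 15), which left 21376. P-values were adjusted by Benjamini and Hochberg over all of them, and genes under 0.05 are called. Each SE was obtained by dividing the log2 fold change by the root of its F value. The procedure was also run on simulated counts, with IAA changes set in er erl2 only and not in genes of the lowest counts. Its outcome is not given here, and no result rests on it. Likeness was taken from BLAST 2.17.0 (E-value limits of 1e-05 for proteins and 1e-10 for transcripts).

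Depth was 28930625 to 35837999 counts per library. Floors of 3 counts and the 95% intervals (exact binomial, on the summed counts) cover counting error only, since no molecular identifiers are described. They make no allowance for the choice of the genes by these same counts. No 2 libraries of a group were alike within sampling noise, with a chi-square per degree of freedom of at least 8.055. Named were the 8 most abundant genes per set, the 2 of smallest IAA p per set, those at the limits of the rule, the ends of runs, the 5 closest protein pairs and ER, ERL2 and ERL1. Other neighbours and relatives were named after their values were seen. The alternatives were other limits of the rule, no filter, a mean CPM of 1, a replicate block, limma-voom (limma 3.58.1), size factors and Wald test of DESeq2 1.42.0, only the groups compared, each library left out, and other neighbour distances. The order of the annotation and the transcript comparison were added after seeing the data. Libraries of different groups with the same replicate number in their titles deviated with correlations of -0.175 to 0.0935, and 0 of 18 exceeded 0.1.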

Additional observations from a re-analysis of the deposited data

How the results depend on the processing

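The number of genes depends on the limits. Allowing 0 counts in the lacking genotype left 33 genes (19 in er erl2 and 14 in WT), allowing 9 gave 118 (63 and 55), and asking for 30 counts in the other genotype left 33 (16 and 17). With single libraries left out there were 55 to 59 genes, 29 to 32 in er erl2 and 26 to 29 in WT. The rule asks for its limits in every library, so leaving a library out can only add genes. The lower ends of these ranges were therefore fixed in advance. For IAA, DESeq2's Wald test called 617 genes in er erl2 and 411 in WT, and a fit of only the groups compared called 172 in WT, against 328 and 259. The number of genes of the sets called for IAA was 0 in every fit run, and the 1 er erl2 gene at an unadjusted edgeR p under 0.05 became 0 without er erl2 IAA replicate 1 or mock replicate 3 and 2 without er erl2 IAA replicate 2 or mock replicate 2, while the WT count of 0 became 1 without WT IAA replicate 1. Leaving out single libraries gave 219 to 561 genes for IAA in er erl2 (561 without er erl2 IAA replicate 2), 164 to 337 for IAA in WT (164 without WT mock replicate 2), 1946 to 3216 for genotype under IAA (1946 without er erl2 IAA replicate 3, 1971 without WT IAA replicate 1) and 2029 to 3482 for genotype under mock (2029 without WT mock replicate 2, 2057 and 2158 without er erl2 mock replicate 3 and replicate 2). The cause was not tested. With 10 neighbours on each side 170 were called (19.0%), the wider window itself holding more genes. Called neighbours numbered 75 to 89 and called relatives 5 to 6 with single libraries left out. The neighbours' share was 22.4% in the order of the annotation. It was 13.2% without a count filter, where more genes with few counts were tested and no background share is given. Transcript comparison, chosen after seeing the data, gave 10 genes with a relative at 95% identity against 4 by protein. The replicate numbers of the titles did not pair the libraries. The column headers carry other numbers for some libraries, and no block was fitted on those. A replicate block gave 296 and 233 genes for IAA in er erl2 and WT, 2590 and 2941 for genotype under IAA and mock, 82 neighbours (17.5%) and 6 relatives. No result reversed. Depth limits the genes near 10 counts, whose IAA changes had standard errors of up to 0.489.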

Other observations

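Genes adjacent to the sets also included some with smaller differences between the genotypes, of which 4 were picked after their values were seen. TGG1 (AT5G26000), a myrosinase that hydrolyses glucosinolates, lies beside AT5G25995 and had 52218 to 78382 counts in er erl2 against 35299 to 47763 in WT. It was higher in er erl2 by 0.61 (SE 0.0997) under IAA and 0.62 (SE 0.0997) under mock on the log2 scale, with an edgeR adjusted p of 0.00132 under IAA and 0.00106 under mock. TPR3 (AT5G27030), a TOPLESS-related corepressor, lies beside AT5G27010 and had 825 to 1120 counts in er erl2 against 1286 to 1475 in WT, with log2 differences of -0.52 (SE 0.084) under IAA and -0.60 (SE 0.0839) under mock. HB23 (AT5G39760), a homeobox gene beside AT5G39770, had 566 to 747 counts in er erl2 against 400 to 517 in WT and was higher by 0.53 (SE 0.1) under IAA and 0.51 (SE 0.0997) under mock. AT5G23405, an HMG-box gene beside the noncoding RNA AT5G23410, had 128 to 165 counts in er erl2 against 236 to 319 in WT, with log2 differences of -0.87 (SE 0.127) under IAA and -1.04 (SE 0.127) under mock. For these 4 genes the genotypes did not overlap in counts, and 2 were higher and 2 lower in er erl2.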
